A study of Homo sapiens with 8 samples.

Results

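The 10 genes examined here are the cytokines IL1A, IL1B and IL6, the chemokines CXCL1, CXCL2, CXCL3, CXCL8 and CCL20, and the serum amyloid genes SAA1 and SAA2. They were taken by symbol from the deposited table, which holds 10 of 10 among its 28281 genes. The table holds RNA sequencing of KYSE70, an established human cell line from an esophageal squamous cell carcinoma, treated with compounds that the series describes as inhibitors of the transcription factor NRF2. The groups were cells given 20 nM mitoxantrone for 72 h (n = 3), cells given 10 µM pyrimethamine for 72 h (n = 2) and untreated cells (n = 3), for which the labels name no vehicle and no time. Of the compounds, mitoxantrone is an anticancer drug acting on type II topoisomerases, and pyrimethamine is an antifolate. All groups come from 1 cell line, and the labels do not say whether replicates were separate cultures, and the spread behind each p-value is that between these libraries, which may be technical.

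Epithelial cells signal injury and infection with these secreted proteins. IL-1α and IL-1β bind the IL-1 receptor, whose adaptors MYD88 and the IRAK kinases lead to NF-κB and AP-1, and those factors act on the genes of the CXC chemokines, which draw neutrophils, of CCL20, which draws CCR6-bearing lymphocytes and dendritic cells, and of IL6. The serum amyloid A proteins are acute-phase apolipoproteins made mainly by the liver and also by inflamed epithelium. Most of these mRNAs are short-lived, through AU-rich elements and the proteins that bind them.

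The CXC members lie together on chromosome 4, and the 250 bases before their RefSeq starts (GRCh38.p14) are shown because these 4 genes share a stretch of sequence while their transcripts differed widely in level and in direction. Capitals mark GGAATTTCC, a form of the NF-κB type of site, and TGANTCA, a form of the AP-1 type of site, each searched on both strands. IL1A, on chromosome 2, is shown as the other member with an AP-1 match; the table gives it 2 starts, and the one with 2 matches is printed.
CXCL8, chr4:73740319-73740568, plus strand: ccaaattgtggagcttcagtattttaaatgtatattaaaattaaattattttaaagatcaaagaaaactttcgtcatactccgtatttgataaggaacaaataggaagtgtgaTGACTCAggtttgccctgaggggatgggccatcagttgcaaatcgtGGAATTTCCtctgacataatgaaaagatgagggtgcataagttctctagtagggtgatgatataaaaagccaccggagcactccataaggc
CXCL1, chr4:73869143-73869392, plus strand: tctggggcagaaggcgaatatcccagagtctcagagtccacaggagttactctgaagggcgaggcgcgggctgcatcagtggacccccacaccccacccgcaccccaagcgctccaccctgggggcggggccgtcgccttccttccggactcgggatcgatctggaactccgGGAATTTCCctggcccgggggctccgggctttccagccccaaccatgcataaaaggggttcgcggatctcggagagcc
CXCL3, chr4:74038690-74038939, minus strand: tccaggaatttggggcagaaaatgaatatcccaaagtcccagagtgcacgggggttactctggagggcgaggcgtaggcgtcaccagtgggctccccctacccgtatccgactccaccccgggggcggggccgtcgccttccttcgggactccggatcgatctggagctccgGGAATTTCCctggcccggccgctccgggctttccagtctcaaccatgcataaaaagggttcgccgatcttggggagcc
CXCL2, chr4:74099196-74099445, minus strand: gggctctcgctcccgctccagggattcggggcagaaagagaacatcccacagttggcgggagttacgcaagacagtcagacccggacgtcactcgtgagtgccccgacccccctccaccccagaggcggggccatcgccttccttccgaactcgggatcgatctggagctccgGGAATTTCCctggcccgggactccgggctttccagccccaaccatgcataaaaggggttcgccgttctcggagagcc
IL1A, chr2:112784401-112784650, minus strand: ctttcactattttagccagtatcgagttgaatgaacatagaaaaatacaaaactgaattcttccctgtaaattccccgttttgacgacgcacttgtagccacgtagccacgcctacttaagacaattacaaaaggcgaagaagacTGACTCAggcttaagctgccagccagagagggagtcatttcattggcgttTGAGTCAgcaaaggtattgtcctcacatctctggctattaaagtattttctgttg
GGAATTTCC stands at -91 to -83 from the start in CXCL8, at -78 to -70 in CXCL1 and CXCL3 and at -77 to -69 in CXCL2, and 145 of 35116 windows of this length in the table hold it, or 0.413%. TGANTCA stands at -137 to -131 in CXCL8 and at -105 to -99 and -55 to -49 in IL1A, and 6.57% of windows hold it. Neither of these exact runs of letters was found in the windows of IL1B, IL6 and CCL20. Other forms of NF-κB and AP-1 sites were not searched, so these windows may hold them. A match is a run of letters and not a measured binding site.

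Values are the authors' size-factor-normalised signal, from 17555689 to 24774358 recovered reads per library. Of the members, 5 had a mean of at least 10 over the 8 libraries and were tested: IL1A, IL1B, CXCL1, CXCL8 and SAA1. The other 5, IL6, CXCL2, CXCL3, CCL20 and SAA2, lay under that minimum, SAA2 closest to it at 9.09. The pyrimethamine libraries stood apart from each other. Their log2 values correlated over genes at 0.890, against 0.981 to 0.984 among mitoxantrone libraries and 0.988 to 0.990 among untreated ones. Pyrimethamine replicate 2 correlated with the mitoxantrone libraries at 0.953 to 0.967 and replicate 1 at 0.784 to 0.830, so each pyrimethamine result is given for both libraries. Normalised totals were 24709594 to 26996719 with mitoxantrone, 13330987 and 19744037 with pyrimethamine and 18822863 to 19026460 in untreated cells.

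Against untreated cells, 4 of the 5 tested members rose with mitoxantrone and 1 fell. SAA1, CXCL8, IL1B and IL1A were the higher ones and CXCL1 the lower one, at an adjusted p under 0.05 (limma on log2(value + 1), Benjamini-Hochberg over 15350 genes). In bulk RNA of 1 cell line, a change in the share of cells in a given state cannot be told apart from a change in RNA per cell. Mitoxantrone moved much of the transcriptome: 54.9% of tested genes were called in either direction, 26.8% higher and 28.1% lower, so being called was in itself common. The split of all calls moved with the scaling: it was 4119 higher and 4311 lower with the authors' size factors, 5642 and 2998 under upper-quartile scaling, and 2788 and 5996 under scaling by read total. Of all tested genes 56.3% were called under upper-quartile scaling, 57.2% under scaling by read total and 54.5% with an adjustment for transcript length. The 4 higher members remained called under both scalings, and CXCL1 under the second. For all 5 members the mitoxantrone and untreated libraries did not overlap, as for 40.4% of tested genes in the higher and 39.5% in the lower direction.

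**Figure D1:**
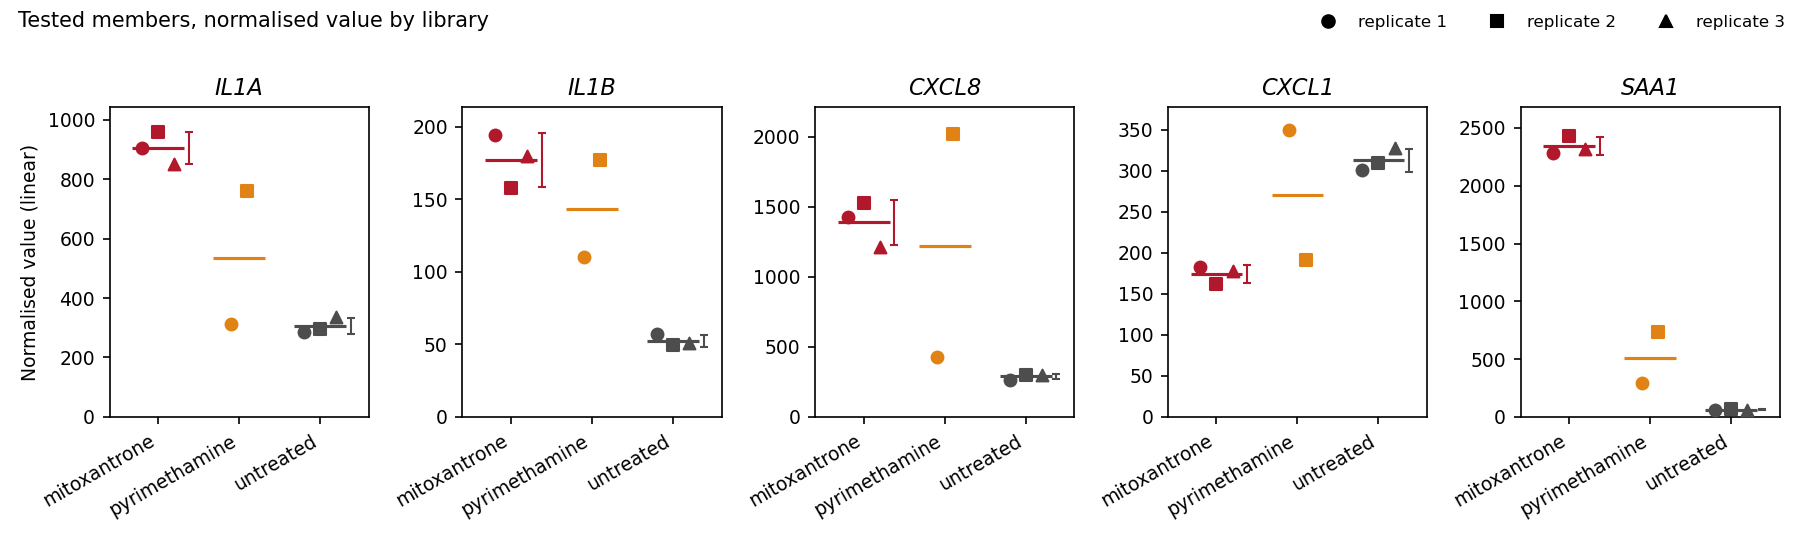
Normalised value (linear axis from 0) of the 5 tested members in each library, with the group mean as a line and the SD as a bar for groups of 3. Mitoxantrone libraries lie above all untreated libraries for IL1A, IL1B, CXCL8 and SAA1 and below them for CXCL1, and the 2 pyrimethamine libraries lie far apart for IL1A, CXCL8, CXCL1 and SAA1.

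IL1A encodes IL-1α, an alarmin stored in keratinocytes and released when they are damaged. Its normalised value was 905, 958 and 852 with mitoxantrone, 312 and 760 with pyrimethamine, and 285, 296 and 337 in untreated cells. All mitoxantrone libraries lay above the untreated ones. With the authors' size factors pyrimethamine replicate 1 lay within the untreated range and replicate 2 well above it. The mean was 905 ± 53.2 with mitoxantrone and 306 ± 27.5 untreated (SD, n = 3 each), and the log2 fold change of mitoxantrone minus untreated was 1.56 ± 0.30 (SE), or 2.96-fold, with an adjusted p of 0.00380 by limma. With an adjustment for transcript length this fold change was 0.98, still called.

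IL1B encodes IL-1β, which needs cleavage by caspase-1 before it is active. The normalised value of IL1B was 194, 158 and 180 with mitoxantrone, 110 and 177 with pyrimethamine, and 57.0, 49.4 and 50.8 in untreated cells. Neither compound's libraries overlapped the untreated ones. IL1B averaged 177 ± 18.6 with mitoxantrone and 52.4 ± 4.04 in untreated cells (SD, n = 3 each), and rose 3.33-fold (log2 1.74 ± 0.23, adjusted p 0.00108 by limma). Per kilobase of exon, IL1A was the more abundant of the pair in every library: the ratio of IL1A to IL1B was 6.78 to 8.87 with mitoxantrone, 4.12 and 6.26 with pyrimethamine, and 7.29 to 9.67 in untreated cells. The ratios of the mitoxantrone and untreated libraries overlapped.

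CXCL8, the neutrophil chemoattractant interleukin-8, had 1425, 1531 and 1211 normalised units with mitoxantrone, 429 and 2019 with pyrimethamine, and 267, 299 and 302 in untreated cells. The highest and the lowest treated values of CXCL8 were both pyrimethamine libraries. CXCL8 averaged 1389 ± 163 with mitoxantrone and 289 ± 19.7 untreated (SD, n = 3 each), a rise of 4.78-fold (log2 2.26 ± 0.47, adjusted p 0.00571 by limma).

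CXCL1, another ligand of the receptor CXCR2 that draws neutrophils, ran the other way. Its normalised value was 182, 161 and 178 with mitoxantrone, 350 and 191 with pyrimethamine, and 301, 310 and 328 in untreated cells. Mitoxantrone libraries lay below every untreated one, while the pyrimethamine libraries lay 1 above and 1 below the untreated range. CXCL1 averaged 174 ± 11.0 with mitoxantrone and 313 ± 13.8 untreated (SD, n = 3 each), and fell 1.80-fold (log2 -0.84 ± 0.23, adjusted p 0.0163 by limma). This call was lost under upper-quartile scaling (log2 -0.51, adjusted p 0.0701) and without mitoxantrone replicate 2, untreated replicate 2 or untreated replicate 3 (adjusted p 0.0536 to 0.0610), and the log2 fold change was -1.72 with an adjustment for transcript length; the range of adjusted p over the alternatives was 2.53e-06 to 0.0701.

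The balance of the 2 chemokines differed between groups. Per kilobase of exon, the ratio of CXCL8 to CXCL1 was 4.45, 5.41 and 3.89 with mitoxantrone, 0.698 and 6.01 with pyrimethamine, and 0.505, 0.550 and 0.525 in untreated cells. CXCL8 exceeded CXCL1 in every mitoxantrone library and in pyrimethamine replicate 2, and CXCL1 exceeded CXCL8 in every untreated library and in pyrimethamine replicate 1. This ratio does not depend on how a library is scaled. The 2 genes share GGAATTTCC in the windows printed above, and of the pair only CXCL8 also has TGANTCA there; what these sequences do in KYSE70 was not measured.

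SAA1, the acute-phase serum amyloid A gene, had the largest change of the members. Its normalised value was 2285, 2433 and 2316 with mitoxantrone, 296 and 732 with pyrimethamine, and 59.7, 66.9 and 57.0 in untreated cells. The 3 groups did not overlap, and both pyrimethamine libraries lay between the other groups. SAA1 averaged 2345 ± 77.8 with mitoxantrone and 61.2 ± 5.08 untreated (SD, n = 3 each), and its log2 fold change of 5.24 ± 0.30 (adjusted p 1.18e-04 by limma) was the 22nd highest of 15350 tested genes. Per kilobase of exon, SAA1 averaged 2946 normalised units with mitoxantrone, 646 with pyrimethamine and 76.9 in untreated cells. In untreated cells that level was below those of IL1A (144), CXCL8 (127) and CXCL1 (241), and with mitoxantrone it was above IL1A (426), CXCL8 (611) and CXCL1 (134).

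SAA2, the neighbour of SAA1 that encodes a closely related acute-phase protein, did not follow it. SAA2 had 11, 4 and 8 reads with mitoxantrone, 13 and 15 with pyrimethamine, and 6, 6 and 9 in untreated cells. No library had over 15 reads. The share of SAA reads assigned to SAA2 was 0.715%, 0.212% and 0.380% with mitoxantrone, 2.45% and 2.06% with pyrimethamine, and 8.45%, 6.38% and 14.1% in untreated cells. The exact (Clopper-Pearson) 95% interval was 0.357% to 1.28% for the highest mitoxantrone share and 2.38% to 13.4% for the lowest untreated share; such intervals cover counting error only. The 2 genes share reads: 46.6% of the 50-base windows of SAA1 transcripts, and 28.5% of the 100-base windows, occur in SAA2 transcripts, SAA2 also overlaps the readthrough gene SAA2-SAA4, and how the authors' counting treated reads that match both is not given in the sources used here. The split is therefore uncertain, but the sum of both genes does not depend on it. If reads that match both were left out of the counting, the sum and the SAA1 level per kilobase lack them too. The sum was 2301, 2438 and 2325 with mitoxantrone, 303 and 748 with pyrimethamine, and 65.3, 71.4 and 66.4 in untreated cells, and its log2 fold change was 5.10 ± 0.30 for mitoxantrone minus untreated (adjusted p 1.21e-04 by limma).

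IL6, CXCL2, CXCL3 and CCL20 stayed near the floor of detection. IL6, the inducer of the hepatic acute phase, had 2, 0 and 1 reads with mitoxantrone, 2 and 2 with pyrimethamine, and 2, 1 and 0 in untreated cells. CXCL2, a CXCR2 ligand, had 2 reads in all 8 libraries together, 1 in mitoxantrone replicate 1 and 1 in untreated replicate 2. At this depth a small difference or a fall of IL6 or CXCL2 was not detectable, since even a count of 0 allows up to 3 reads. No library of any group had more than 2 reads of either gene. IL6 also shares 20.7% of its exonic bases with an antisense RNA gene, which the counting may not separate.

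CXCL3, also a CXCR2 ligand, had 0, 2 and 3 reads with mitoxantrone, 28 and 0 with pyrimethamine, and 5, 13 and 3 in untreated cells. CCL20, the CCR6 ligand, had 0, 1 and 1 reads with mitoxantrone, 8 and 1 with pyrimethamine, and 0, 1 and 2 in untreated cells. For both genes pyrimethamine replicate 1 was the highest library and replicate 2 was not, which matches the order of those libraries for CXCL1. CXCL2 and CXCL3 transcripts share 8.99% and 6.01% of their 50-base windows, so reads may also be split between them. When limma was run with no minimum, 0 of these 5 members were called in any comparison and 0 had an unadjusted p under 0.05, with adjusted p from 0.343 to 0.985 over the comparisons, where 31.9%, 1.05% and 19.3% of 27834 genes were called for mitoxantrone minus untreated, pyrimethamine minus untreated and mitoxantrone minus pyrimethamine. The count tools were not run on genes under the minimum.

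**Figure D2:**
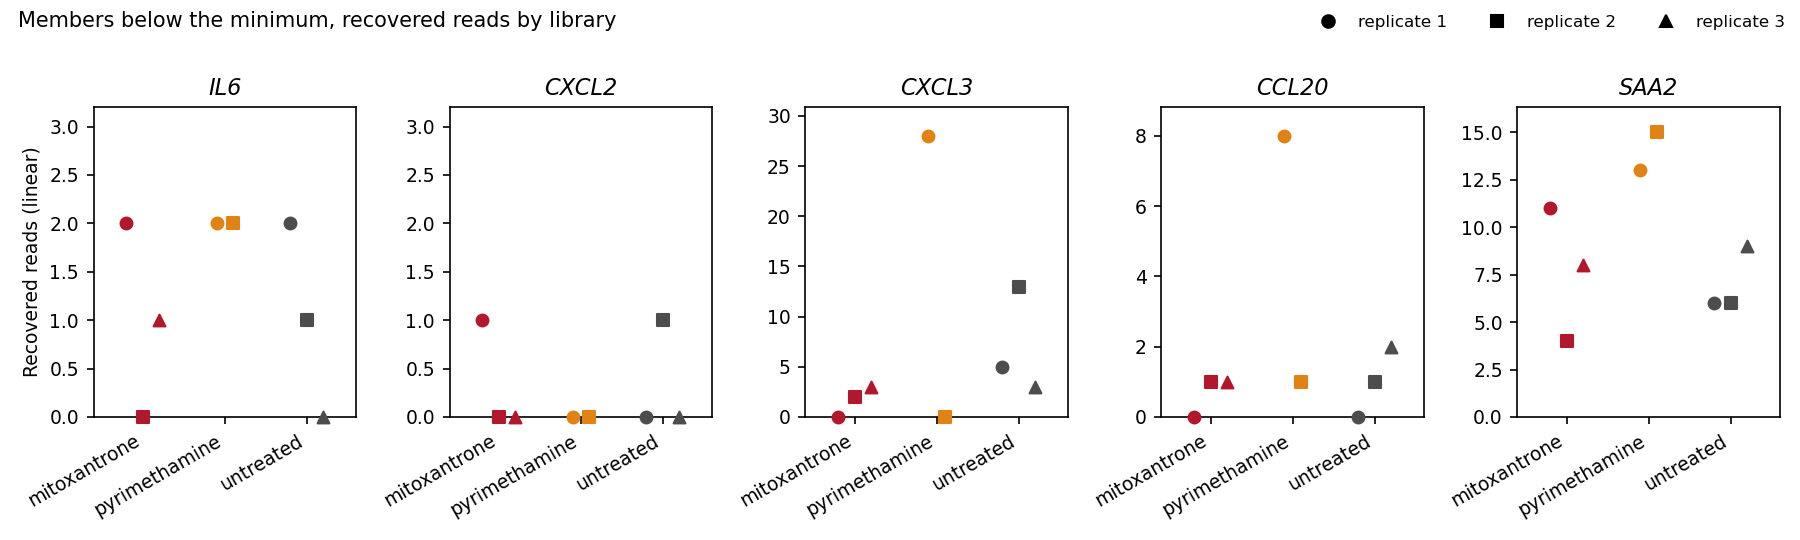
Recovered reads (linear axis from 0) of the 5 members under the minimum in each library. Counts are at most 2 for IL6 and at most 1 for CXCL2. The pyrimethamine replicate 1 library is the highest for CXCL3 (28 reads) and CCL20 (8 reads). SAA2 spans 4 to 15 reads with no group far from the others.

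Fewer calls were made for pyrimethamine, and 2 of the 5 tested members were among them: SAA1 and IL1B rose, where 3.6% of all tested genes were called in either direction, 2.29% higher and 1.31% lower. SAA1 rose 7.51-fold (log2 2.91 ± 0.33, adjusted p 0.0115 by limma) and IL1B rose 2.64-fold (log2 1.40 ± 0.26, adjusted p 0.0304). The SE and p of every comparison with pyrimethamine use a spread shared by all 8 libraries. The mitoxantrone and untreated libraries were more alike, so these errors understate the spread between the pyrimethamine libraries. Neither call held with 2 groups alone or with array weights. Both were higher in 2 of 2 pyrimethamine libraries than in every untreated library. The sum of SAA1 and SAA2 gave 2.80 ± 0.33 on the log2 scale (adjusted p 0.0115). Of all calls 352 were higher and 201 lower, with 472 and 125 under upper-quartile scaling (3.89% of genes) and 600 and 114 under scaling by read total (4.65%). By edgeR 4.36% of genes were called and by DESeq2 11.3%.

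The other 3 members were not called for pyrimethamine. CXCL8 was higher in both libraries than in any untreated one, as were 15.8% of tested genes, at a log2 fold change of 1.69 ± 0.53 (adjusted p 0.124 by limma, 0.0535 by edgeR and 0.00169 by DESeq2; range over the alternatives 6.11e-07 to 1.00). No tested member was lower in both pyrimethamine libraries than in every untreated one, beside 16.9% of genes. IL1A had 0.67 ± 0.33 (adjusted p 0.313) and CXCL1 -0.27 ± 0.26 (adjusted p 0.626). Both of these averages lie between unlike libraries. On the log2 scale, the difference of pyrimethamine replicate 1 from the untreated mean was 0.03 for IL1A, 0.57 for CXCL8, 1.06 for IL1B, 0.16 for CXCL1 and 2.26 for SAA1. The same difference for replicate 2 was 1.31 for IL1A, 2.80 for CXCL8, 1.74 for IL1B, -0.71 for CXCL1 and 3.56 for SAA1. Replicate 2 had the same order and signs of the 5 members as the mitoxantrone group, whereas in replicate 1 IL1A differed least from untreated cells and CXCL1 lay above them.

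The pyrimethamine calls rest on few libraries. With each library left out in turn, the number of called members ran from 0, without any 1 of the untreated libraries, to 5 without pyrimethamine replicate 1, a setting in which 47.4% of all genes were called; 1 remained, SAA1, without any 1 of the mitoxantrone libraries. The adjusted p of SAA1 ranged over the alternatives between 4.05e-13 and 0.197, and that of IL1B between 1.03e-04 and 1.00.

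**Figure D3:**
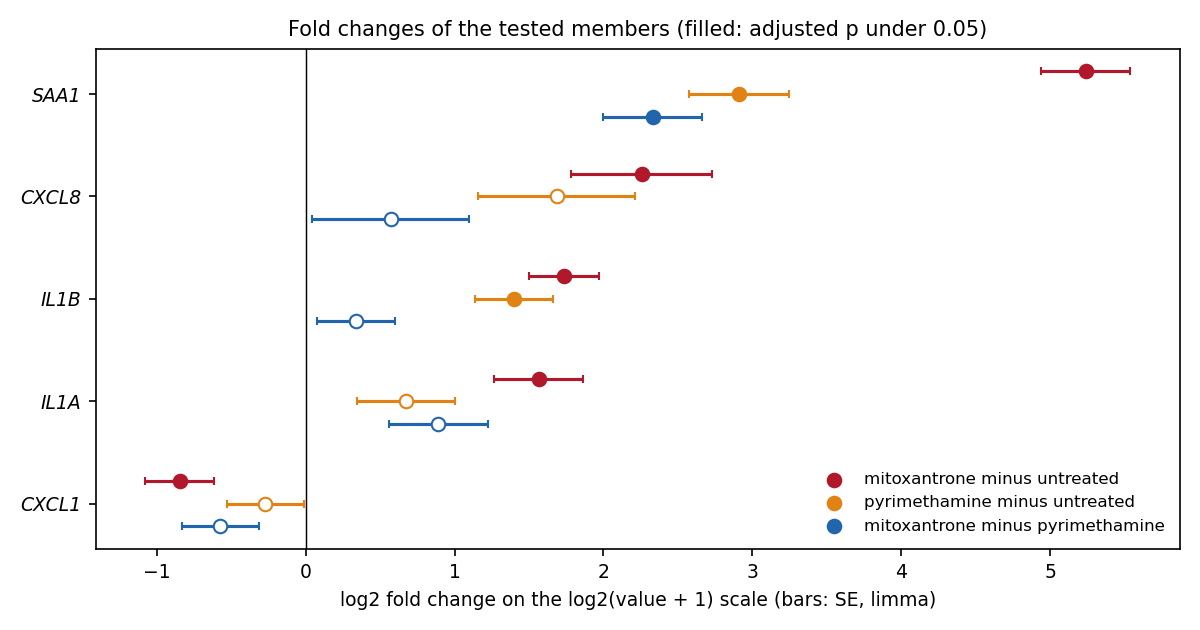
Log2 fold changes of the tested members on the log2(value + 1) scale, with SE bars, for mitoxantrone minus untreated, pyrimethamine minus untreated and mitoxantrone minus pyrimethamine. Filled points passed an adjusted p of 0.05: 5 members for mitoxantrone, SAA1 and IL1B for pyrimethamine, and SAA1 alone between the compounds.

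Between the compounds, which were given at different doses and do not share a scaffold, 1 of the 5 tested members was called, against 41% of all tested genes (21.2% higher and 19.9% lower). SAA1 was higher with mitoxantrone than with pyrimethamine by 5.03-fold (log2 2.33 ± 0.33, adjusted p 0.0160 by limma). The log2 differences of the others were 0.89 ± 0.33 for IL1A (adjusted p 0.0585), 0.57 ± 0.53 for CXCL8 (adjusted p 0.383), 0.34 ± 0.26 for IL1B (adjusted p 0.30) and -0.57 ± 0.26 for CXCL1 (adjusted p 0.0994). IL1A was higher and CXCL1 lower in every mitoxantrone library than in both pyrimethamine libraries, as were 32.9% and 30.4% of tested genes in those directions. For CXCL8 the sign depended on 1 library: the log2 difference was -0.55 without pyrimethamine replicate 1 and 1.69 without replicate 2, and 35.3% of genes were called in the first of these fits. The SAA1 call was lost without mitoxantrone replicate 1 or 2 (adjusted p 0.0781 and 0.0799), and without pyrimethamine replicate 2 all 5 members were called, where 75.8% of genes were. Over all genes 3247 calls were higher and 3052 lower, with 4105 and 2096 under upper-quartile scaling (40.4% of genes), 1439 and 6612 under scaling by read total (52.4%) and 2512 and 4201 by edgeR (43.7%). With an adjustment for transcript length 39.4% were called.

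Of the remaining IL-1 family ligands, 3 of the 8 in the table could be tested. All 3 rose with mitoxantrone, beside 26.8% of all tested genes higher, with a median log2 fold change of 2.59 beside 0.00 over all tested genes. IL18, an epithelial cytokine activated by caspase-1, was the most abundant: 23459, 23069 and 20700 with mitoxantrone, 3054 and 11640 with pyrimethamine, and 3699, 3584 and 3890 in untreated cells. IL18 rose 6.01-fold with mitoxantrone (log2 2.59 ± 0.42, adjusted p 0.00218 by limma), and with the authors' size factors pyrimethamine replicate 1 lay below the untreated libraries. IL1RN, the receptor antagonist that blocks IL-1, had 117, 74.9 and 126 with mitoxantrone, 64.5 and 73.0 with pyrimethamine, and 29.4, 13.7 and 34.2 in untreated cells (log2 2.06 ± 0.38 for mitoxantrone, adjusted p 0.00342). IL1F10, the ligand IL-38, had 28, 38 and 35 reads with mitoxantrone, 9 and 20 with pyrimethamine, and 1, 2 and 2 in untreated cells (adjusted p 8.75e-04 for mitoxantrone), and no fold is given for it because the untreated counts are so low. With pyrimethamine 0 of the 3 were called by limma, with 2 at an unadjusted p under 0.05, 0 by edgeR and 2 by DESeq2. Without pyrimethamine replicate 1 all 3 were called higher, and without replicate 2 IL1RN was called higher and IL18 lower.

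Of 9 tested receptors and adaptors of IL-1, 4 rose and 2 fell with mitoxantrone, beside 26.8% of all tested genes higher and 28.1% lower. IL1RAP, the accessory chain of the receptor, rose 2.24-fold (log2 1.16 ± 0.16, adjusted p 0.00107 by limma), with 4084, 4037 and 3524 against 1705, 1747 and 1733 in untreated cells. IRAK1, a kinase of the pathway, fell (log2 -1.38 ± 0.19, adjusted p 0.00111), and so did IRAK2 (log2 -1.13 ± 0.25, adjusted p 0.00722). IL1R2, a decoy receptor, and the signalling genes IRAK4 and TRAF6 were the other 3 that rose, and are named after their values were seen. IL1R2 averaged 4.15 in untreated cells, 11.9 with pyrimethamine and 22.6 with mitoxantrone. It passed the minimum for testing only through the mitoxantrone libraries, which favours a rise. Upper-quartile scaling gave 7 higher and 2 lower, scaling by read total 2 and 2, and an adjustment for transcript length 6 and 2. With pyrimethamine 1 of the 9 rose, beside 2.29% of all tested genes higher. This was IL1R1, the signalling receptor, at 110 and 102 against 28.1 to 38.6 in the 3 untreated libraries (log2 1.71 ± 0.28, adjusted p 0.0208).

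CASP1, the protease that cleaves IL-1β and IL-18, rose with both compounds. It had 438, 394 and 371 with mitoxantrone, 407 and 610 with pyrimethamine, and 138, 131 and 116 in untreated cells. Both compounds' libraries lay above every untreated one, with a log2 fold change of 1.63 ± 0.20 for mitoxantrone (adjusted p 7.78e-04 by limma) and 1.95 ± 0.22 for pyrimethamine (adjusted p 0.0115). Of 5 tested inflammasome genes 2 rose with each compound, beside 26.8% of all tested genes higher with mitoxantrone and 2.29% with pyrimethamine. CASP4, the sensor of intracellular lipopolysaccharide, was the second to rise with mitoxantrone (log2 1.00 ± 0.19, adjusted p 0.00391). NLRP1, a keratinocyte inflammasome sensor, was the second with pyrimethamine (log2 2.54 ± 0.56, adjusted p 0.0491), where its libraries were unlike at 560 and 135 against 51.5, 47.1 and 41.5 in untreated cells. Under scaling by read total the pyrimethamine calls were CASP1 and CASP4, and NLRP1 lost its call. With an adjustment for transcript length NLRP1 was also called higher with mitoxantrone. The adaptor gene PYCARD had at most 5 reads in a library.

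Of 10 tested genes for receptors and signalling of the IL-6 family, 4 fell and 1 rose with mitoxantrone. Of all tested genes 28.1% were lower and 26.8% higher. The kinase genes TYK2 and JAK2 and the receptor genes LIFR and IL6R fell. SOCS1, a feedback inhibitor of JAK kinases, rose. With an adjustment for transcript length IL6ST, STAT3 and SOCS1 were higher and JAK2 and TYK2 lower, and LIFR and IL6R lost their calls. Upper-quartile scaling left TYK2 lower with SOCS1 and SOCS3 higher. With pyrimethamine 0 of 10 were called by limma, with 2 at an unadjusted p under 0.05, 0 by edgeR and 1 by DESeq2; leaving out pyrimethamine replicate 1 gave 4 calls and leaving out replicate 2 gave 6, where 47.4% and 49.3% of all genes were called. Among receptors for the chemokines and serum amyloid only SCARB1, a lipoprotein receptor that also binds serum amyloid A, reached the minimum, and it fell with mitoxantrone (log2 -1.60 ± 0.23, adjusted p 0.00145), with 939, 1024 and 1299 against 3364, 3286 and 3140 in untreated cells. CXCR1, a receptor for CXCL8, had 0 reads in all libraries.

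Other secreted signals that rose with mitoxantrone were EBI3, IL32 and IL23A among 7 tested cytokines, of which LIF fell, and CCL26 and CCL2 among 4 tested chemokines, beside 26.8% of all tested genes higher. EBI3 and IL23A averaged 1.76 and 5.95 in untreated cells and 17.1 and 13.3 with pyrimethamine. Both passed the minimum of 10 only through the mitoxantrone libraries, which favours a rise. For the cytokines upper-quartile scaling gave 5 higher and 0 lower, with LIF no longer called, scaling by read total 2 higher and 1 lower, with IL23A no longer called, and the adjustment for transcript length also left IL23A without a call. For the chemokines upper-quartile scaling gave 4 higher and scaling by read total 2. CCL26, an eosinophil chemoattractant, had 772, 776 and 756 with mitoxantrone, 113 and 391 with pyrimethamine, and 108, 111 and 140 in untreated cells (log2 2.68 ± 0.39 for mitoxantrone, adjusted p 0.00147 by limma). EBI3, a subunit of IL-27, rose with both compounds: 23, 35 and 36 reads with mitoxantrone, 31 and 16 with pyrimethamine, and 1, 3 and 2 in untreated cells (adjusted p 3.91e-04 for mitoxantrone and 0.0189 for pyrimethamine). CXCL14 was the chemokine that rose with pyrimethamine, at 236 and 179 against 92.8, 106 and 86.1 in untreated cells (log2 1.11 ± 0.22, adjusted p 0.0368), a call lost under scaling by read total and with an adjustment for transcript length. Of 5 tested acute-phase and antimicrobial genes, SLPI, an inhibitor of neutrophil proteases, rose 11.2-fold with mitoxantrone (log2 3.49 ± 0.37, adjusted p 5.27e-04) and C3, the central complement protein, fell 2.27-fold (adjusted p 0.0183), a call lost with the length adjustment; CRP, HP and ORM1 had between 0 and 3 normalised units.

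Of 20 tested transcription factors and regulators of the pathway, 4 rose and 6 fell with mitoxantrone, beside 26.8% of all tested genes higher and 28.1% lower, so the list did not stand out by its counts; its median log2 fold change was 0.18. ATF3, a stress-induced factor of the AP-1 group, rose 4.62-fold (log2 2.21 ± 0.23, adjusted p 5.13e-04 by limma), and RELB, an NF-κB subunit of the noncanonical pathway, rose 2.55-fold (log2 1.35 ± 0.18, adjusted p 0.00107). BCL3, a nuclear partner of NF-κB subunits, fell 2.18-fold (log2 -1.12 ± 0.18, adjusted p 0.00193). Named after their values were seen, the canonical subunits NFKB1 and RELA were also lower, with 67.3, 115 and 130 against 434, 425 and 450 for NFKB1 (log2 -2.11 ± 0.37, adjusted p 0.00277). The call counts were 7 higher and 5 lower under upper-quartile scaling and 2 and 7 under scaling by read total. With pyrimethamine 3 of 20 rose, beside 2.29% of all tested genes higher: RELB at 391 and 348 against 112, 116 and 113 in untreated cells (log2 1.69 ± 0.20, adjusted p 0.0115), JUN (log2 1.61 ± 0.26, adjusted p 0.0207) and ATF3 (log2 1.21 ± 0.26, adjusted p 0.0462). ATF3 lost this call under upper-quartile scaling, where RELB, IRF1, JUN and FOSL1 were called. In the fit of the 2 groups alone 0 genes of any pathway list were called for pyrimethamine minus untreated, as were 0 of all genes by limma, with 2077 of all genes at an unadjusted p under 0.05.

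Of 12 tested genes that act on AU-rich mRNAs, 10 fell and 1 rose with mitoxantrone, beside 28.1% of all tested genes lower and 26.8% higher, with a median log2 fold change of -0.99. HNRNPD, an AU-rich element binding protein that promotes decay, had 890, 930 and 1211 with mitoxantrone, 3164 and 1889 with pyrimethamine, and 5078, 5443 and 4834 in untreated cells, and fell 5.10-fold with mitoxantrone (log2 -2.35 ± 0.23, adjusted p 3.89e-04 by limma). KHSRP, a second decay factor, fell 2.96-fold (log2 -1.56 ± 0.27, adjusted p 0.00284). DUSP1, a phosphatase that turns off p38 and JNK kinases, rose 2.80-fold (log2 1.49 ± 0.23, adjusted p 0.00181). The list is not of 1 direction in function: ELAVL1, which fell 1.47-fold (log2 -0.55 ± 0.17, adjusted p 0.0247; named after its values were seen), is known to stabilise such mRNAs. The count was 5 lower and 1 higher under upper-quartile scaling and 8 lower and 1 higher with an adjustment for transcript length. With pyrimethamine 0 of 12 were called by limma, with 4 at an unadjusted p under 0.05, 0 by edgeR and 1 by DESeq2; there were 8 calls without pyrimethamine replicate 1 and 3 without replicate 2.

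**Figure D4:**
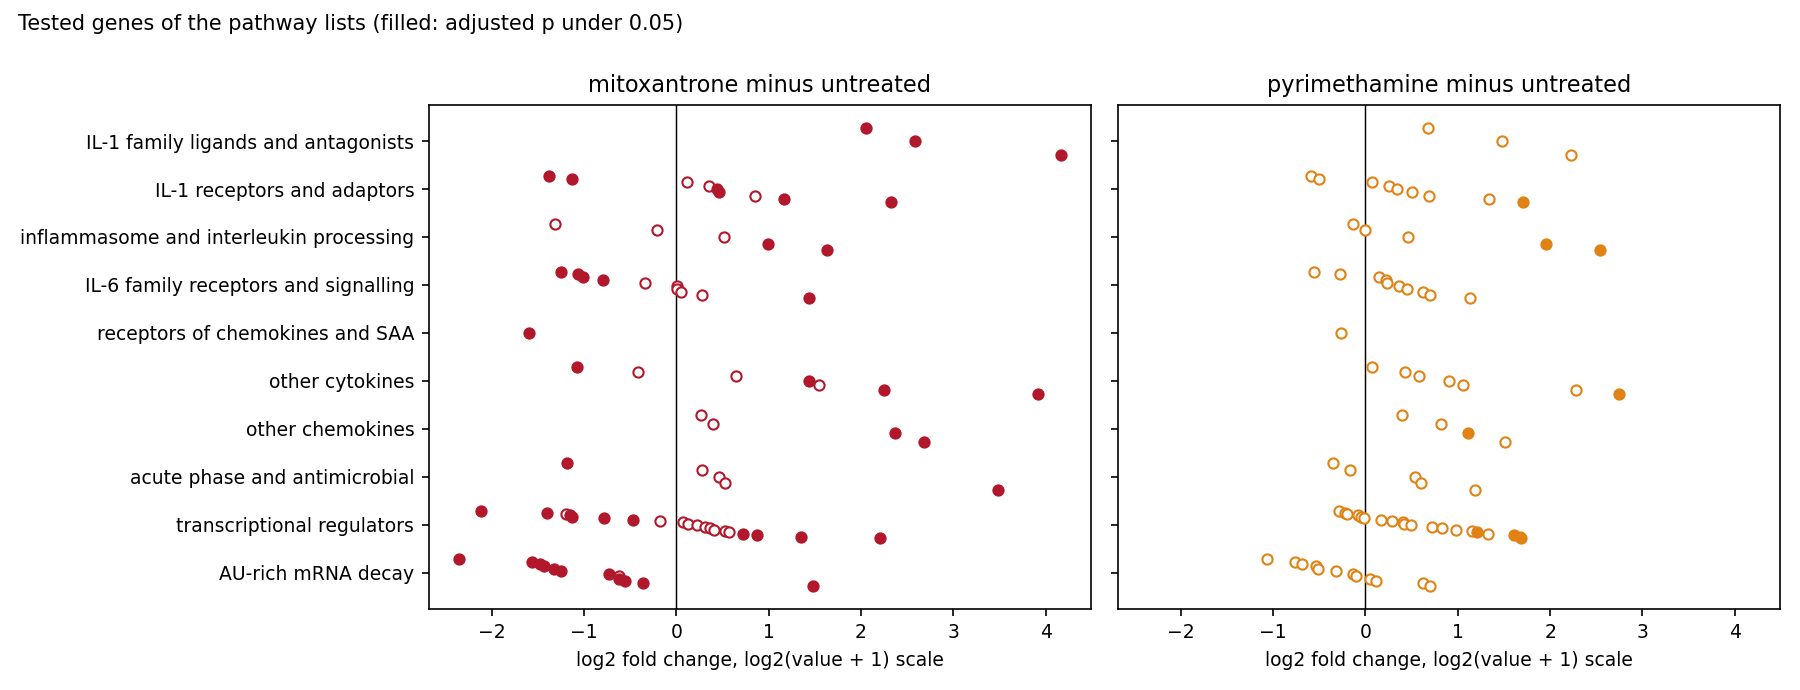
Log2 fold changes (log2(value + 1) scale) of every tested gene in the 10 pathway lists, 1 point per gene, for mitoxantrone minus untreated (left) and pyrimethamine minus untreated (right); filled points passed an adjusted p of 0.05. The 3 tested IL-1 family ligands lie right of 0 with mitoxantrone and the genes of AU-rich mRNA decay lie left of it except DUSP1.

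The genes whose values followed each tested member most closely over the 8 libraries are given as a description, since the groups set most of this likeness. Among 10819 genes with a mean of at least 100, SAA1 was most like CPA4, a carboxypeptidase gene (r = 0.998), and NCEH1, a cholesteryl ester hydrolase gene (r = 0.998). IL1A was most like the noncoding RNA LINC01589 (r = 0.997) and DHRS12 (r = 0.996), and IL1B most like TENT5C (r = 0.996) and LPXN (r = 0.994). CXCL8 was most like RNF227 and ABI1 (r = 0.992 for both). CXCL1 was most like the deubiquitinase genes USP34 and USP42 (r = 0.996 for both); USP34 had 226, 207 and 222 with mitoxantrone, 1027 and 283 with pyrimethamine, and 721, 856 and 851 in untreated cells. CXCL1 and USP34 share the high value of pyrimethamine replicate 1.

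The nearest tested genes outside the member loci (GENCODE 29, GRCh38) did not all move with them. The IL1 pair (IL1A chr2:112773915-112784590, IL1B chr2:112829751-112836903) has CKAP2L 9.24 kb away, which was not called with mitoxantrone (log2 -1.07 ± 0.47, adjusted p 0.0808 by limma), and on the other side IL1F10 at 231 kb, described above. Beside the CXC genes (CXCL8 chr4:73740506-73743716 to CXCL2 chr4:74097035-74099293), MTHFD2L at 14.9 kb rose with mitoxantrone (log2 1.53 ± 0.41, adjusted p 0.0153) and RASSF6 at 120 kb was not called (log2 0.71 ± 0.49, adjusted p 0.245). Beside the SAA genes (SAA2 chr11:18239223-18248643, SAA1 chr11:18266174-18269977), HPS5 at 8.69 kb rose 2.28-fold with mitoxantrone (log2 1.19 ± 0.18, adjusted p 0.00178). MRGPRX3, 101 kb away on the other side, had 78 reads over the mitoxantrone libraries, 23 with pyrimethamine and 5 in untreated cells (adjusted p 0.00201 for mitoxantrone). Near IL6, RAPGEF5 fell with mitoxantrone (log2 -1.36 ± 0.33, adjusted p 0.0102) and TOMM7 was not called (log2 0.98 ± 0.41, adjusted p 0.0692). Near CCL20, SLC19A3 and LINC01807 rose with mitoxantrone (adjusted p 0.0122 and 0.0450), with 44 and 93 reads over the mitoxantrone libraries and 11 and 33 in untreated cells. MRGPRX3, SLC19A3 and LINC01807 averaged 1.64, 3.49 and 9.80 in untreated cells and passed the minimum of 10 only through the mitoxantrone libraries, which favours a rise. The same holds for IL1F10, as given above.

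The labelled squamous cell type was checked against its markers. All 10 squamous markers were tested, led by the keratin gene KRT5, although KRT14 and KRT16 averaged only 62.0 and 15.2 over the libraries, and the summed value was 95633 to 95818 with mitoxantrone, 98325 to 101698 with pyrimethamine and 126515 to 133289 in untreated cells. That sum is mostly KRT5, which was not called with mitoxantrone (log2 -0.78, adjusted p 0.0551 by limma), and other squamous markers moved further. TP63, the transcription factor of squamous cells, fell 3.76-fold, the desmosome gene DSG3 fell 4.80-fold and the integrin gene ITGB4 fell 4.63-fold, while PERP, another desmosome gene, rose 2.25-fold (adjusted p 4.25e-04, 0.00166, 0.00109 and 0.00557 by limma). For pyrimethamine minus untreated 0 of the 10 were called by limma, with 0 at an unadjusted p under 0.05, 0 by edgeR and 1 by DESeq2. Markers of hepatocytes, the main makers of serum amyloid, were near 0: the 6 in the table, ALB among them, summed to 1.5 to 22.1 with mitoxantrone, 2.85 to 7.20 with pyrimethamine and 1.84 to 8.36 in untreated cells, and 0 of the 6 reached the minimum. The 10 leukocyte markers in the table summed to 135 to 162 with mitoxantrone, 114 to 144 with pyrimethamine and 57.0 to 69.5 in untreated cells, the largest part of it CD68, the one tested, at 98.7, 103 and 136 with mitoxantrone, 117 and 97.7 with pyrimethamine and 55.1, 52.4 and 62.2 in untreated cells. The remainder came from genes under the minimum, among them LYZ with 16.4, 5.16 and 5.52 with mitoxantrone, 2.28 and 3.09 with pyrimethamine and 0, 0 and 1.04 in untreated cells. The leukocyte genes PTPRC, CD14, CD3E and MS4A1 had 44, 15, 1 and 1 reads over all libraries. Fibroblast markers, led by COL1A1, summed to 474 to 627 with mitoxantrone, 1956 to 2298 with pyrimethamine and 1197 to 1317 in untreated cells. Endothelial markers summed to 103 to 204 with mitoxantrone, 181 to 359 with pyrimethamine and 82.7 to 99.5 in untreated cells. The part of these shifts in the members' values was not tested.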

How the data were processed

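Total RNA of KYSE70 cells was sequenced in 8 libraries. STAR 2.6.90c, featureCounts 1.5.1, cutadapt 1.12 and FastQC 0.11.5 were used with the hg38 build, per the submitters' processing notes; no source used here gives the annotation or the strand setting. The deposited table holds a normalised signal, gene counts divided by the authors' size factors, with 0 columns of other samples. Whole reads were recovered from the steps of its values (100% whole within 0.1 read), giving 17555689 to 24774358 reads per library.

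Groups were compared by limma 3.58.1 in R 4.3.3 (lmFit, eBayes with a trend) on log2(value + 1), which understates the change of low genes, for 15350 genes with a mean of at least 10. All 8 libraries shared 1 estimate of the spread, two-sided, Benjamini-Hochberg, threshold 0.05, for 3 comparisons. SAA1 and SAA2 were also fitted as a sum. Alternatives were other pseudocounts, minimums and scalings, edgeR 4.0.16 and DESeq2 1.42.0 on recovered reads, array weights, 2 groups alone, a replicate block, a length adjustment and each library left out.

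The members and lists were chosen with earlier results of these data known. Named are all members, up to 3 genes (mitoxantrone) and 2 (pyrimethamine) called with the smallest adjusted p per list or all where at most 5 were called, the 2 genes most like each tested member, and the neighbours of each locus; genes named for a call gained or lost under an alternative, and the single marker genes, were chosen after their values were seen, and other exceptions are said. GENCODE 29 (GRCh38) gave positions and lengths, and RefSeq promoters (GRCh38.p14) matched 8 of 10 members. In simulated data with 15350 genes, only 83, 59 and 58 genes were altered 1.5-fold, 2-fold and 4-fold. For mitoxantrone minus untreated the test called 0%, 5.08% and 63.8% of these, with 3 false calls. It called 0%, 1.69% and 50% for pyrimethamine minus untreated, with 1 false call. In the data 54.9% of genes were called for mitoxantrone minus untreated, which loosens the adjusted threshold. The simulated rates therefore do not measure how many changes of a given size that comparison missed. The simulated libraries of all groups were given the same spread for each gene. In the data the pyrimethamine libraries differed more from each other than those of the other groups. The simulated rates therefore do not carry over to pyrimethamine minus untreated either.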

Additional observations from a re-analysis of the deposited data

How the results depend on the processing

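For mitoxantrone minus untreated, IL1A, IL1B, CXCL8, SAA1 and the SAA sum stayed called and higher in all 22 alternatives, and 4 or 5 members were called in each. The number of genes called ran between 5687 and 11841 with a library left out. CXCL1 lost its call in 4 of 22, as given above.

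The pyrimethamine comparisons depended more on the fit. The number of genes called for pyrimethamine minus untreated was 291 with no filter, 1738 by DESeq2, 954 with a length adjustment, and 0 with array weights and with 2 groups alone (500 and 2077 genes at an unadjusted p under 0.05 by limma), and 10 to 7571 with a library left out. Called members were 1 with no filter and 0 with array weights and 2 groups alone (2 and 3 at an unadjusted p under 0.05), and 0 to 5 with a library left out. The SAA sum was no longer called at 2.80 with array weights and 2.80 with 2 groups alone, and ran between 2.15 and 3.45 with a library left out. CXCL1 turned to 0.16 without pyrimethamine replicate 2 and was -0.71 without replicate 1.

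For mitoxantrone minus pyrimethamine, 884 genes were called with array weights, 0 with 2 groups alone (6009 unadjusted) and 0 to 11638 with a library left out. Called members were 2 under upper-quartile scaling, read-total scaling and the length adjustment, 0 with 2 groups alone (1 unadjusted) and 0 to 5 with a library left out. The SAA sum was no longer called at 2.30 with 2 groups alone and ran between 1.65 and 2.95 with a library left out. IL1B turned to -0.34 and CXCL8 to -0.11 under read-total scaling, where the median of all genes was -0.69, and without pyrimethamine replicate 1 IL1B was -0.0026 and CXCL8 -0.55, against 0.68 and 1.69 without replicate 2. The cause was not tested. Medians of all genes under upper-quartile scaling were 0.34 for mitoxantrone minus untreated, 0.04 for pyrimethamine minus untreated and 0.20 for mitoxantrone minus pyrimethamine; under read-total scaling the first was -0.45 and the second 0.14, and with TMM they were -0.11, -0.06 and -0.15, beside 0.00, -0.08 and -0.02 with the authors' size factors.

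The replicate numbers do not pair the libraries: deviations of same-numbered libraries correlated between -0.41 and 0.13. A replicate block by title numbers, or by the numbers in the library names, gave 0 and 0 genes for pyrimethamine minus untreated (2084 and 2027 unadjusted) with 0 and 0 members (3 and 3 unadjusted), and an SAA sum of 2.79 and 2.83, not called. For mitoxantrone minus pyrimethamine the block gave 0 and 0 genes (7359 and 6499 unadjusted), 0 and 0 members (2 and 2 unadjusted) and an SAA sum of 2.31 and 2.27, not called. For mitoxantrone minus untreated it gave 7251 and 6592 genes. With a library left out of a pair, the lone library is assumed to vary like the other groups.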
